A study of Oryza sativa with 12 samples.

Results

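In rice leaves, 128 of 38978 annotated genes were named as parts of the abscisic acid pathway or as dehydration proteins, and their transcript levels are described here across 6 groups of plants. The members were taken by name from the authors' table for the OsPIP2-1 experiment. They comprise 75 protein phosphatases of type 2C (PP2C), 23 late embryogenesis abundant (LEA) proteins, 12 PYL/RCAR receptors, 10 SAPK kinases, 5 NCED enzymes and 3 RAB16 or RAB21 dehydrins. Leaves came from greenhouse plants of Pusa Basmati-1, a scented indica rice, at 2.5 months of age. In the PIP2-1 experiment the groups were an overexpression line of the aquaporin OsPIP2-1 (PIP2-1 OE, a Myc-tagged copy driven by maize ubiquitin's promoter), a line knocked out with CRISPR-Cas9 and free of T-DNA (PIP2-1 KO), and wild type (PIP2-1 WT). The PIP2-7 experiment held the same 3 groups for the aquaporin OsPIP2-7 (PIP2-7 OE with a FLAG tag, PIP2-7 KO and PIP2-7 WT). Each group had 2 libraries, and the labels give neither the number of independent lines nor whether the libraries came from separate plants, so a p-value here measures the spread between libraries, which may be technical. The ubiquitin promoter is active in most tissues.

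As background, abscisic acid is the hormone that closes stomata and switches on protective genes when water is short. PYL/RCAR receptors bind the hormone and then hold back clade A PP2C phosphatases, which frees the SnRK2 kinases (SAPK in rice) to phosphorylate bZIP transcription factors such as TRAB1. NCED enzymes cleave epoxycarotenoids in the plastid and set the rate of hormone synthesis. LEA proteins and RAB dehydrins are hydrophilic proteins that accumulate in drying tissue and seeds. Many of the other PP2C phosphatases act outside hormone signalling, so the PP2C members are described as clade A members found by number and as others.

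Library totals ran between 24636211 and 40666127 counts, and the members together took between 0.357% and 0.496% of them. Levels are CPM, the count of a gene relative to its library's total after TMM scaling over the 12 libraries. Changes are log2 fold changes from edgeR with a Benjamini-Hochberg adjusted p under 0.05 over all genes as the call. After the filter on low counts, 91 members were tested in each experiment and 93 in the fit of all 12 libraries. The 35 members left out had at most 94 counts in all 12 libraries together and at most 0.464 CPM in any one. They were 17 LEA, 9 PP2C, 6 PYL, 2 RAB and 1 NCED members, and 3 of them, OsLEA31, OsLEA32 and OsPP2C63, had 0 counts, which allows up to 0.00728 CPM at 3 counts over the 12 libraries. The remaining 6 LEA, 4 NCED, 66 PP2C, 6 PYL, 1 RAB and 10 SAPK members carry the results.

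The targeted genes checked the overexpression labels. OsPIP2-1 averaged 1900.3 CPM in PIP2-1 OE leaves and 139 CPM in PIP2-1 KO leaves, against 131 CPM in PIP2-1 WT leaves. OsPIP2-7 averaged 1683 CPM in PIP2-7 OE leaves and 159 CPM in PIP2-7 KO leaves, against 693 CPM in PIP2-7 WT leaves. A small edit made by CRISPR-Cas9 need not lower transcript level, so the PIP2-1 KO label is not checked by these values. OsPIP2-7 itself averaged 293 CPM in PIP2-1 OE and 969.5 CPM in PIP2-1 KO leaves, against 335 CPM in PIP2-1 WT leaves. The wild types stood apart although variety, tissue and age were the same by label. Of 93 members tested, 15 were higher and 48 lower in PIP2-7 WT leaves than in PIP2-1 WT leaves, where 28.1% and 28.5% of all 24556 genes were called in these directions. The columns of the count table name the wild types by set rather than by aquaporin, and 61 of these 63 members differed in the same direction between the WT values of the authors' deposited tables. For single genes, the change against the WT pair of the other experiment is given beside the change against their own WT where it ends or turns the call. 

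Against their own WT, more members were called lower than higher in both OsPIP2-1 lines, and more higher than lower in both OsPIP2-7 lines. In PIP2-1 OE leaves 10 of 91 tested members were called higher and 45 lower, where 23.2% and 20.9% of all genes tested were called in these directions. PIP2-1 KO leaves had 16 members higher and 49 lower, against 30.5% and 31.9% of all genes. In PIP2-7 OE leaves 45 members were higher and 20 lower, where all genes gave 33.4% and 33.7%. PIP2-7 KO leaves had 41 higher and 26 lower, against 32.1% and 31.3%. The same shares of all genes are the background for the counts by role and by list of names below. As shares of the tested members, the lower calls were 49.5% in PIP2-1 OE and 53.8% in PIP2-1 KO leaves, and the higher calls were 49.5% in PIP2-7 OE and 45.1% in PIP2-7 KO leaves. Against the WT pair of the other experiment the counts were 36 higher and 20 lower in PIP2-1 OE, 23 higher and 28 lower in PIP2-1 KO, 23 higher and 33 lower in PIP2-7 OE, and 17 higher and 44 lower in PIP2-7 KO leaves, so 3 of the 4 lines had more calls in the opposite direction there. Shares of all genes called against that pair alone were not taken, so whether the members differ from other genes there is not known. DESeq2 called fewer members lower against their own WT in PIP2-1 OE (27) and PIP2-7 KO leaves (17). The median log2 change of the members against their own WT was -0.16 in PIP2-1 OE, -0.37 in PIP2-1 KO, 0.26 in PIP2-7 OE and 0.11 in PIP2-7 KO leaves, while the median of all genes stayed between -0.01 and 0.00. The OE and KO lines of an experiment share their WT libraries.

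**Figure D1:**
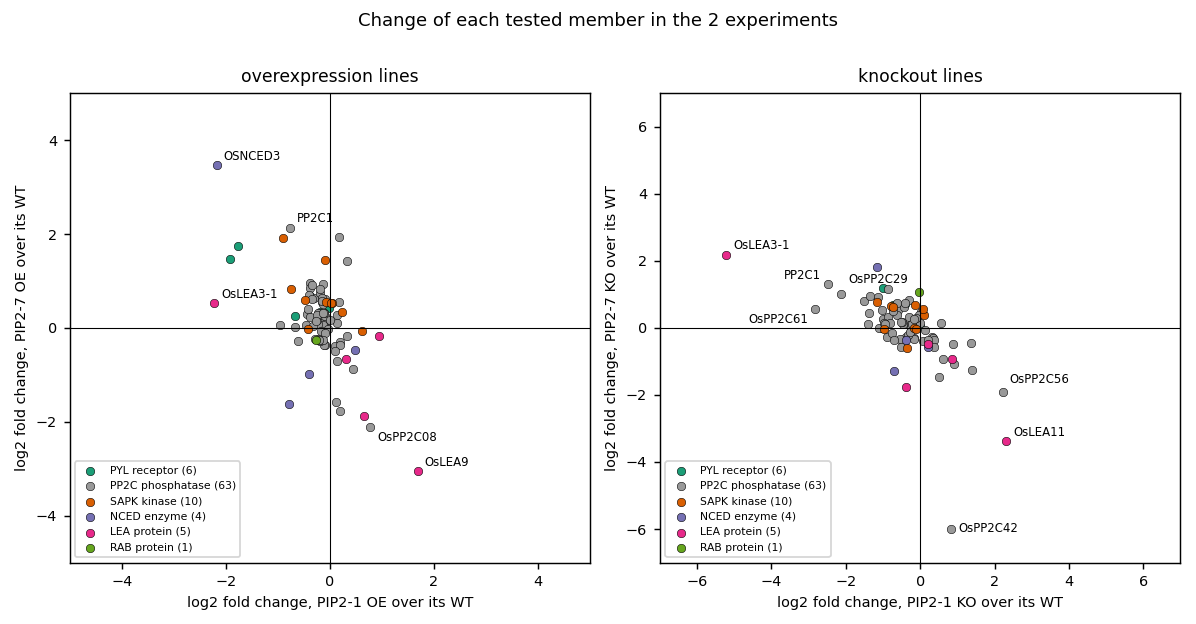
Log2 fold change of each member over its own WT in the PIP2-7 experiment (vertical axis) against the PIP2-1 experiment (horizontal axis), for the overexpression lines (left) and the knockout lines (right). Each point is 1 of 89 members tested in both, coloured by role, with the number of each role in the legend and the members that changed by more than 2 in either experiment named. Points fill the upper left and lower right parts of each panel most: 36 members were called in opposite directions in the overexpression lines and 44 in the knockout lines.

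The direction turned round between the experiments for much of the set, as the plot of changes in both experiments shows. Among 89 members tested in both, 36 were called in opposite directions in the overexpression lines and 7 in the same direction. These were 40.4% and 7.87% of the members, where 29.0% and 7.10% of all genes tested were called so. For the knockout lines 44 were opposite and 10 the same, which is 49.4% and 11.2% of the members, where all genes gave 37.5% and 8.59%. In the overexpression lines 31 of the opposite members were lower in PIP2-1 OE and higher in PIP2-7 OE leaves. In the knockout lines 30 were lower in PIP2-1 KO and higher in PIP2-7 KO leaves. The opposite calls of all genes were not split by direction, so the counts of 31 and 30 are not set against other genes. A direct test of the difference between experiments called 69 of 93 members for overexpression, where 62.6% of all genes were called, and 71 of 93 for knockout, where 67.3% were. The first share is 74.2% of the members and the second 76.3%. Since the PIP2-7 WT pair was lower than the PIP2-1 WT pair for 48 members, the difference between the wild types enters every one of these differences, and its part cannot be told apart from that of the lines.

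Marker lists for leaf state also differed between the lines and their wild types. Of 6 chlorophyll-breakdown markers of senescing leaf, 0 were higher and 5 lower in PIP2-1 OE leaves, 1 higher and 5 lower in PIP2-1 KO leaves, 6 higher and 0 lower in PIP2-7 OE leaves, and 5 higher and 0 lower in PIP2-7 KO leaves. Their summed level was 609.7 to 612 CPM in PIP2-1 OE and 504 to 527 CPM in PIP2-1 KO libraries, against 1322 to 1389 CPM in PIP2-1 WT libraries. In the other experiment it was 1607 to 1662 CPM in PIP2-7 OE and 1669 to 1682 CPM in PIP2-7 KO libraries, against 532 to 552 CPM in PIP2-7 WT libraries. The defining gene SGR, which removes magnesium from chlorophyll, averaged 20.7 CPM in PIP2-1 OE and 4.97 CPM in PIP2-1 KO leaves, against 102 CPM in PIP2-1 WT leaves. It averaged 157 CPM in PIP2-7 OE and 108 CPM in PIP2-7 KO leaves, against 4.29 CPM in PIP2-7 WT leaves. The 3 mesophyll markers found (PsbO, CAB1R and CAB2R) summed to 11984 to 12138 CPM in PIP2-1 OE and 20099 to 21726 CPM in PIP2-1 KO libraries, against 9105 to 9444 CPM in PIP2-1 WT libraries. They summed to 5449.5 to 5569 CPM in PIP2-7 OE and 10154 to 10227 CPM in PIP2-7 KO libraries, against 17367 to 17684 CPM in PIP2-7 WT libraries. The SGR changes against the other WT pair were 2.28, 0.19, 0.64 and 0.075 in PIP2-1 OE, PIP2-1 KO, PIP2-7 OE and PIP2-7 KO leaves, with neither KO value called. Among floral and meristem markers, 1 was tested in the PIP2-1 experiment and 2 in the PIP2-7 experiment. OsMADS2, a floral organ factor, was called lower in both OsPIP2-1 lines (-0.46 and -1.22) and higher in both OsPIP2-7 lines (0.36 and 0.76), and -0.37, -1.14, 0.29 and 0.68 against the other WT pair, where the PIP2-7 OE value was not called. OsMADS4, the other marker tested in the PIP2-7 experiment, was not called there (-0.88 in OE and -0.86 in KO leaves). Against the PIP2-1 WT pair it was called higher in both OsPIP2-7 lines, at 2.25 and 2.26. The 5 floral and meristem markers found summed to 4.55 to 4.70 CPM in PIP2-1 OE and 2.93 to 3.16 CPM in PIP2-1 KO libraries, against 5.52 to 6.56 CPM in PIP2-1 WT libraries. In the PIP2-7 experiment they summed to 6.78 to 8.57 CPM in OE and 9.31 to 10.6 CPM in KO libraries, against 6.23 to 6.30 CPM in WT libraries. The meristem genes OSH1 and OSH15 and the seed oil-body genes OLE16 and OLE18 were at no more than 0.179 CPM in any group's mean. The 4 seed markers summed to 17 to 17.4 CPM in PIP2-7 OE libraries, most of it from 2 loci named GluB1, a storage protein, and to at most 6.19 CPM in libraries of the other groups. The vascular wall gene OsCesA4 averaged at most 2.27 CPM in any group. The part of leaf state and of other tissues in the members' changes was not tested, and in bulk leaf RNA fewer cells of a type and less RNA per cell cannot be told apart.

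**Figure D2:**
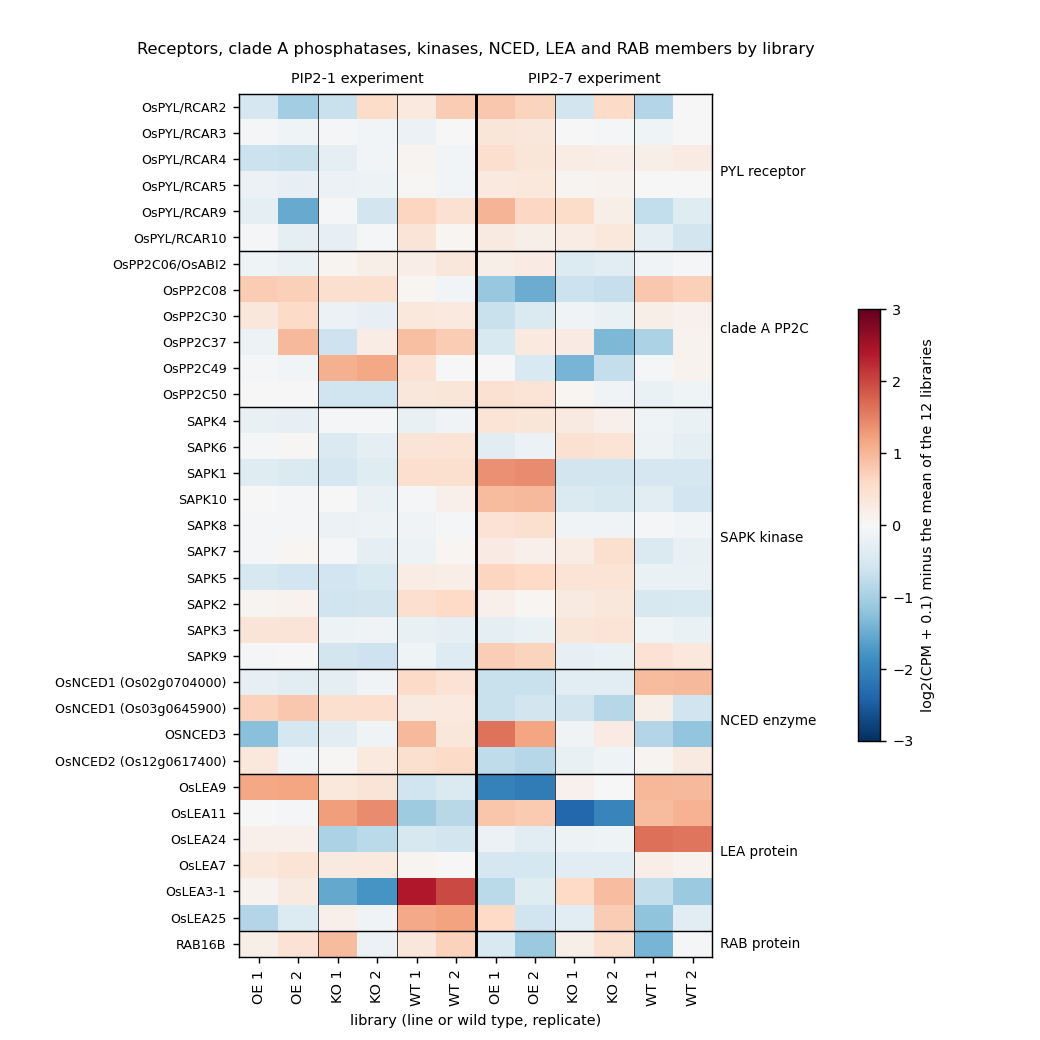
Level of each tested PYL, clade A PP2C, SAPK, NCED, LEA and RAB member (rows) in each library (columns; OE, KO and WT of the PIP2-1 experiment left, of the PIP2-7 experiment right), as log2(CPM + 0.1) minus the mean of the 12 libraries. The kinase rows are red in the PIP2-7 OE columns for SAPK1 and SAPK10. OsNCED1 (Os02g0704000) is red in the 4 WT columns and blue in the 8 columns of the lines. Clade A rows are the members found by number, so PP2C1 has no row.

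Among the receptors, 6 of 12 were tested, and all 6 were higher in PIP2-7 OE leaves than in PIP2-7 WT leaves. The other lines changed fewer: 5 were lower in PIP2-1 OE, 2 lower in PIP2-1 KO and 2 higher in PIP2-7 KO leaves. Of all genes tested, 33.4% were higher in PIP2-7 OE and 32.1% higher in PIP2-7 KO leaves. In the other experiment 20.9% of all genes were lower in PIP2-1 OE and 31.9% in PIP2-1 KO leaves. Per kilobase of exon the receptors OsPYL/RCAR5 and OsPYL/RCAR3 were the most abundant, at 56.2 and 42.6 CPM per kb over the 12 libraries, while OsPYL/RCAR2 and OsPYL/RCAR9 were near the detection limit at 0.386 and 0.422. Summed over the 12 receptors, the level was 104 ± 4.47 CPM in PIP2-1 OE and 109 ± 1.18 CPM in PIP2-1 KO leaves, against 118 ± 2.72 CPM in PIP2-1 WT leaves (SD, n = 2 libraries each). It was 152 ± 1.48 CPM in PIP2-7 OE and 126 ± 0.89 CPM in PIP2-7 KO leaves, against 117 ± 2.08 CPM in PIP2-7 WT leaves, so the wild types lay within their spread of each other.

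OsPYL/RCAR5 (Os05g0213500, IRGSP-1.0 chr5:7034322-7036548, plus strand, 3 exons), which in rice binds the phosphatase OsPP2C30 and acts with the kinase SAPK2, had 75.4 and 76.4 CPM in PIP2-7 OE leaves and 64.9 and 65.5 CPM in PIP2-7 KO leaves, against 60.6 and 61 CPM in PIP2-7 WT leaves. All 4 libraries of the OsPIP2-7 lines lay above both WT libraries, with log2 changes of 0.33 (SE 0.041, adjusted p = 1.8e-09) in OE and 0.10 (adjusted p = 0.033) in KO leaves. The same receptor had 54.4 and 51.4 CPM in PIP2-1 OE leaves and 53.7 and 54.6 CPM in PIP2-1 KO leaves, against 63 and 57.3 CPM in PIP2-1 WT leaves. The changes were -0.19 (SE 0.054, adjusted p = 0.0040) and -0.17 (adjusted p = 0.0086). Against the other WT pair the OE call for PIP2-7 (0.35) and both PIP2-1 calls (-0.19 for OE and -0.17 for KO) were kept, and the PIP2-7 KO call was lost (0.11, adjusted p = 0.059). Single libraries decided the smaller calls: PIP2-1 OE lost its call without PIP2-1 WT replicate 1 (-0.12) or PIP2-1 OE replicate 2 (-0.15). PIP2-1 KO lost it without PIP2-1 WT replicate 1 (-0.10) or PIP2-1 KO replicate 1 (-0.14). PIP2-7 KO lost it without PIP2-7 WT replicate 1 (0.091), PIP2-7 WT replicate 2 (0.11), PIP2-7 KO replicate 1 (0.11) or PIP2-7 KO replicate 2 (0.10).

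OsPYL/RCAR3 had 53.7 and 52.3 CPM in PIP2-7 OE leaves and 42.1 and 39.6 CPM in PIP2-7 KO leaves, against 38.2 and 40.9 CPM in PIP2-7 WT leaves. Only the OE libraries stood above WT, at a log2 change of 0.43 (SE 0.051, adjusted p = 6.2e-10). In the PIP2-1 experiment its levels were 39.8 and 37.8 CPM in PIP2-1 OE leaves and 40.6 and 39 CPM in PIP2-1 KO leaves, against 36.4 and 41.3 CPM in PIP2-1 WT leaves, which overlap. OsPYL/RCAR4 had 6.38 and 6.25 CPM in PIP2-1 OE leaves and 8.14 and 9.41 CPM in PIP2-1 KO leaves, against 10.7 and 9.46 CPM in PIP2-1 WT leaves. The change was -0.67 (SE 0.12, adjusted p = 1.4e-05) for OE, and -0.87 against the other WT pair. In PIP2-7 leaves OsPYL/RCAR4 had 14.4 and 13 CPM in OE, against 11.3 and 11.9 CPM in WT. The change was 0.25 (adjusted p = 0.015), and it lost its call without PIP2-7 WT replicate 1 (0.20) or PIP2-7 OE replicate 1 (0.17). OsPYL/RCAR10 had 7.60 and 7.12 CPM in PIP2-7 OE leaves and 7.33 and 7.85 CPM in PIP2-7 KO leaves, against 5.08 and 4.23 CPM in PIP2-7 WT leaves. The changes were 0.67 (adjusted p = 1.1e-05) and 0.71 (adjusted p = 5.3e-06). Both calls were lost against the PIP2-1 WT pair, at 0.027 and 0.046, and that pair had 8.22 and 6.53 CPM.

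In the OsPIP2-1 lines OsPYL/RCAR10 was lower, with changes of -0.39 (adjusted p = 0.021) in OE and -0.40 (adjusted p = 0.018) in KO leaves, and against the PIP2-7 WT pair it was 0.28 and 0.27, the opposite direction and not called. The OE call was lost without PIP2-1 WT replicate 1 (-0.23) or PIP2-1 OE replicate 2 (-0.28), and the KO call without PIP2-1 WT replicate 1 (-0.23) or PIP2-1 KO replicate 1 (-0.28). OsPYL/RCAR2 and OsPYL/RCAR9 had at most 0.760 CPM in any library, and their calls rest on few reads. OsPYL/RCAR9 changed by -1.77 (adjusted p = 0.018) in PIP2-1 OE and 1.74 (adjusted p = 0.0028) in PIP2-7 OE leaves, and OsPYL/RCAR2 by -1.92 (adjusted p = 0.018) and 1.48 (adjusted p = 0.024). None of these 4 calls held against the other WT pair. The OsPYL/RCAR9 call in PIP2-1 OE leaves was lost without 3 of the 4 libraries and grew to -3.30 without PIP2-1 OE replicate 1. For OsPYL/RCAR2 the PIP2-1 OE call was lost without PIP2-1 WT replicate 2 (-1.57) or PIP2-1 OE replicate 2 (-1.49). The PIP2-7 OE call was lost without PIP2-7 WT replicate 1 (0.94), PIP2-7 OE replicate 1 (1.39) or PIP2-7 OE replicate 2 (1.56), while it was 2.38 without PIP2-7 WT replicate 2. With 1 library left out, the count of receptors lower in PIP2-1 OE leaves was 2 without PIP2-1 WT replicate 1, 3 without PIP2-1 WT replicate 2 and 1 without PIP2-1 OE replicate 2. In PIP2-1 KO leaves it was 0 without PIP2-1 WT replicate 1 or PIP2-1 KO replicate 1. The count higher in PIP2-7 KO leaves was 1 without any 1 of the 4 libraries.

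Of 10 clade A phosphatases searched by number, the class that the receptors inhibit, 7 were found by name and 6 tested. A clade A locus listed under another name would be missed. Members without such a number, among them PP2C1 (Os09g0325700, described further below), were not placed in or outside the clade. Of the 6 found by number and tested, OsPP2C08 (Os01g0656200, chr1:26652966-26658299, plus strand, 3 exons) changed most in the OsPIP2-7 lines. It had 2.98 and 2.35 CPM in PIP2-7 OE leaves and 4.24 and 4.16 CPM in PIP2-7 KO leaves, against 11.9 and 11.2 CPM in PIP2-7 WT leaves. The log2 changes were -2.10 (SE 0.13, adjusted p = 2.7e-18) for OE and -1.45 (SE 0.12, adjusted p = 6.1e-14) for KO. Both lines were also lower against the PIP2-1 WT pair, at -1.30 (adjusted p = 2e-11) and -0.67 (adjusted p = 2.7e-05). OsPP2C08 had 11.5 and 11.1 CPM in PIP2-1 OE leaves and 9.50 and 9.44 CPM in PIP2-1 KO leaves, against 7.02 and 6.31 CPM in PIP2-1 WT leaves. This gave 0.77 (adjusted p = 4.5e-07) and 0.50 (adjusted p = 0.00044) against their own WT. The same libraries set against the PIP2-7 WT pair gave -0.0091 (adjusted p = 0.96) for OE and -0.28 (adjusted p = 0.033) for KO, so neither rise held there.

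OsPP2C30 (Os03g0268600), the phosphatase that pairs with OsPYL/RCAR5, was lower in 3 of the 4 lines against both WT pairs. It had 6.95 and 8.20 CPM in PIP2-7 OE leaves and 10.4 and 9.66 CPM in PIP2-7 KO leaves, against 12.7 and 12.3 CPM in PIP2-7 WT leaves. The changes were -0.71 (SE 0.10, adjusted p = 6.2e-08) and -0.32 (adjusted p = 0.0048), the second of which was lost without PIP2-7 KO replicate 2 (-0.27). In the PIP2-1 experiment it had 14.3 and 16.6 CPM in PIP2-1 OE leaves and 9.88 and 9.41 CPM in PIP2-1 KO leaves, against 14 and 13.8 CPM in PIP2-1 WT leaves. There KO leaves changed by -0.54 (SE 0.10, adjusted p = 2.4e-05), while OE leaves were at 0.14 (adjusted p = 0.22) and above the PIP2-7 WT pair by 0.32 (adjusted p = 0.0040). OsPP2C49 (Os05g0457200) parted the knockouts: PIP2-1 KO leaves had 8.08 and 8.52 CPM, against 5.14 and 3.76 CPM in PIP2-1 WT leaves, and PIP2-7 KO leaves had 1.39 and 2.25 CPM, against 3.61 and 4.11 CPM in PIP2-7 WT leaves. These changes of 0.90 (adjusted p = 2.7e-06) and -1.09 (adjusted p = 1.3e-05) were kept against the other WT pair (1.10 and -1.28), and the difference between the experiments was -1.98 (adjusted p = 2.7e-09).

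OsPP2C50 (Os05g0537400) had 27.2 and 27.3 CPM in PIP2-1 OE leaves and 18 and 18 CPM in PIP2-1 KO leaves, against 34.3 and 34.8 CPM in PIP2-1 WT leaves. In the other experiment it had 37.4 and 36.3 CPM in PIP2-7 OE leaves and 28.3 and 25.2 CPM in PIP2-7 KO leaves, against 23.6 and 24.9 CPM in PIP2-7 WT leaves. Both OsPIP2-1 lines lay below their WT, with changes of -0.35 (adjusted p = 3.4e-05) and -0.96 (SE 0.072, adjusted p = 3.8e-14), and both OsPIP2-7 lines above theirs, with 0.62 (SE 0.063, adjusted p = 8.8e-12) and 0.15 (adjusted p = 0.049). Only the PIP2-1 KO fall was kept against the other WT pair (-0.43, adjusted p = 1.9e-06); PIP2-1 OE (0.18) and PIP2-7 KO (-0.38) turned round and PIP2-7 OE lost its call (0.10). The small PIP2-7 KO call was also lost without PIP2-7 WT replicate 1 (0.10) or PIP2-7 KO replicate 1 (0.059). OsPP2C06, also named OsABI2 (Os01g0583100), averaged 40.2 CPM in PIP2-1 OE and 49.5 CPM in PIP2-1 KO leaves, against 54.2 CPM in PIP2-1 WT leaves. It averaged 52.3 CPM in PIP2-7 OE and 34.8 CPM in PIP2-7 KO leaves, against 43.1 CPM in PIP2-7 WT leaves. Its changes were -0.45 (adjusted p = 3.5e-08), -0.16 (adjusted p = 0.016), 0.29 (adjusted p = 1.9e-06) and -0.31 (adjusted p = 2.4e-06) in that order. Against the other WT pair the PIP2-7 KO fall alone kept its direction and call (-0.66), and the others became -0.090, 0.20 and -0.044. The PIP2-1 KO value was lost without PIP2-1 WT replicate 2 (-0.10) or PIP2-1 KO replicate 1 (-0.10). OsPP2C37 reached 0.394 CPM at most and was not called in PIP2-1 OE (-0.42) or PIP2-1 KO leaves (-1.51), and it did not pass the filter in the PIP2-7 experiment.

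All 10 SAPK kinases were tested. In PIP2-7 OE leaves 8 of 10 were higher and 0 lower, and in PIP2-7 KO leaves 6 were higher and 1 lower. In PIP2-1 OE leaves 1 was higher and 4 lower (2 were higher without PIP2-1 WT replicate 1), and in PIP2-1 KO leaves 0 were higher and 5 lower. All genes gave 33.4% higher and 33.7% lower in PIP2-7 OE, and 32.1% and 31.3% in PIP2-7 KO leaves. They gave 23.2% and 20.9% in PIP2-1 OE, and 30.5% and 31.9% in PIP2-1 KO leaves. Summed over the 10 kinases the level was 438 ± 0.18 CPM in PIP2-1 OE and 361 ± 8.19 CPM in PIP2-1 KO leaves, against 535 ± 12 CPM in PIP2-1 WT leaves. It was 616 ± 1.14 CPM in PIP2-7 OE and 519 ± 2.69 CPM in PIP2-7 KO leaves, against 386 ± 7.18 CPM in PIP2-7 WT leaves (SD, n = 2 libraries each). The PIP2-7 OE sum is the highest of the 6 groups, and the PIP2-1 KO sum is the lowest, next to PIP2-7 WT. Per kilobase SAPK2 was the most abundant kinase, at 90.2 CPM per kb over the 12 libraries, followed by SAPK8 at 56.4, and SAPK7 the least at 3.77.

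SAPK1 (Os03g0390200, chr3:15628109-15632425, minus strand, 9 exons), a kinase activated by osmotic stress, had 107 and 111 CPM in PIP2-7 OE leaves and 28.2 and 28.1 CPM in PIP2-7 KO leaves, against 28.9 and 29.1 CPM in PIP2-7 WT leaves. The OE libraries were far above the other 4, at a log2 change of 1.92 (SE 0.046, adjusted p = 4.6e-34) over WT and 1.96 (SE 0.046, adjusted p = 3.7e-34) over KO, while KO leaves were at -0.044 (adjusted p = 0.50). SAPK1 had 31.8 and 30.4 CPM in PIP2-1 OE leaves and 28.8 and 31.8 CPM in PIP2-1 KO leaves, against 58.5 and 57.6 CPM in PIP2-1 WT leaves. Both lines were lower, with changes of -0.91 (SE 0.061, adjusted p = 3.7e-15) and -0.96 (SE 0.063, adjusted p = 9.8e-16). The PIP2-1 WT pair was about as high above the OsPIP2-1 lines as it is above the PIP2-7 WT pair. Against the other WT pair PIP2-7 OE leaves were still higher (0.92, adjusted p = 3e-23), the OsPIP2-1 lines were no longer called (0.11 and 0.059) and PIP2-7 KO leaves were lower (-1.06, adjusted p = 2.2e-23).

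SAPK8, SAPK9 and SAPK10 are the kinases of the family that abscisic acid itself activates, and all 3 were highest in PIP2-7 OE leaves. SAPK10 had 13.8 and 14.3 CPM in PIP2-7 OE leaves and 5.31 and 5.09 CPM in PIP2-7 KO leaves, against 5.74 and 4.75 CPM in PIP2-7 WT leaves. The change was 1.44 (SE 0.11, adjusted p = 1.5e-15) for OE and -0.0070 (adjusted p = 0.97) for KO. SAPK8 had 109.9 and 113 CPM in PIP2-7 OE leaves and 75 and 74.7 CPM in PIP2-7 KO leaves, against 78.8 and 76.1 CPM in PIP2-7 WT leaves. The change was 0.54 (SE 0.038, adjusted p = 8.1e-17) for OE and -0.048 (adjusted p = 0.30) for KO. SAPK9 had 22.8 and 21.8 CPM in PIP2-7 OE leaves and 11.4 and 11.9 CPM in PIP2-7 KO leaves, against 18.4 and 17 CPM in PIP2-7 WT leaves. OE changed by 0.34 (adjusted p = 8.9e-05) and KO by -0.60 (SE 0.082, adjusted p = 2.3e-08). Against the PIP2-1 WT pair the PIP2-7 OE rises of SAPK10 (0.91), SAPK8 (0.56) and SAPK9 (0.99) were all called, and the PIP2-7 KO fall of SAPK9 was not (0.030), while SAPK10 was lower there in KO leaves (-0.54, adjusted p = 0.00027). In the PIP2-1 experiment SAPK10 had 7.27 and 6.87 CPM in OE and 7.29 and 6.28 CPM in KO, against 7.02 and 7.93 CPM in WT leaves, values that overlap. SAPK8 lay at 78.4 and 78.9 CPM in OE and 71 and 72.8 CPM in KO, against 74.7 and 77.4 CPM in WT leaves, and neither line was called against its own WT. SAPK9 had 9.31 and 8.83 CPM in PIP2-1 KO, against 12.4 and 10.5 CPM in PIP2-1 WT leaves. The change was -0.34 (adjusted p = 0.0071), a call lost without PIP2-1 WT replicate 1 (-0.22), and -0.96 against the PIP2-7 WT pair.

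SAPK5 and SAPK2 went opposite ways in the experiments, in both lines. SAPK5 (Os04g0691100, chr4:35344338-35346212, plus strand, 4 exons) had 42.8 and 40.3 CPM in PIP2-1 OE leaves and 40.3 and 43.7 CPM in PIP2-1 KO leaves, against 69.6 and 68.5 CPM in PIP2-1 WT leaves. The changes were -0.74 (SE 0.055, adjusted p = 6e-14) and -0.74 (SE 0.057, adjusted p = 6.9e-14). In the PIP2-7 experiment it had 93.9 and 91 CPM in PIP2-7 OE leaves and 80.1 and 80.1 CPM in PIP2-7 KO leaves, against 52.4 and 52 CPM in PIP2-7 WT leaves. The changes were 0.83 (SE 0.041, adjusted p = 2.6e-22) and 0.62 (SE 0.042, adjusted p = 2.4e-17). The order of its levels ran PIP2-7 OE, PIP2-7 KO, PIP2-1 WT, PIP2-7 WT and then the OsPIP2-1 lines, which overlap each other. All 4 SAPK5 calls were kept against the other WT pair, at -0.32, -0.32, 0.43 and 0.20. SAPK2 (Os07g0622000), the partner of OsPP2C30 and a kinase whose loss in rice weakens the response to drought, had 129 and 131 CPM in PIP2-1 OE leaves and 81.6 and 83.4 CPM in PIP2-1 KO leaves, against 174 and 187 CPM in PIP2-1 WT leaves. Its levels in the other experiment were 136 and 128 CPM in PIP2-7 OE leaves and 149 and 155 CPM in PIP2-7 KO leaves, against 87.7 and 88.7 CPM in PIP2-7 WT leaves.

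The SAPK2 changes were -0.48 (SE 0.041, adjusted p = 2.8e-12) in PIP2-1 OE, -1.15 (SE 0.043, adjusted p = 7.3e-23) in PIP2-1 KO, 0.59 (SE 0.037, adjusted p = 2e-18) in PIP2-7 OE and 0.79 (SE 0.037, adjusted p = 5.5e-23) in PIP2-7 KO leaves. Set against the other WT pair, none of them kept its call in the same direction: they became 0.57, -0.10, -0.44 and -0.26, and PIP2-7 WT leaves differed from PIP2-1 WT leaves by -1.05 (SE 0.040, adjusted p = 7e-30). SAPK3 (Os10g0564500) was higher in PIP2-1 OE leaves, at 50.4 and 50.8 CPM against 33.3 and 32.1 CPM in PIP2-1 WT leaves, and in PIP2-7 KO leaves, at 49.8 and 51.4 CPM against 35.5 and 33.5 CPM in PIP2-7 WT leaves. These changes of 0.62 (SE 0.059, adjusted p = 4.1e-11) and 0.55 (SE 0.053, adjusted p = 1.6e-12) hardly moved with the other WT pair (0.57 and 0.62), and PIP2-1 KO (0.083) and PIP2-7 OE leaves (-0.060) were not called. SAPK4 was higher in PIP2-7 OE (0.55, SE 0.048, adjusted p = 1e-13) and PIP2-7 KO leaves (0.38, adjusted p = 4e-09), also against the PIP2-1 WT pair (0.55 and 0.37).

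SAPK7 rose by 0.54 (adjusted p = 0.00049) in PIP2-7 OE and 0.69 (adjusted p = 1.6e-05) in PIP2-7 KO leaves, and against the PIP2-1 WT pair only the KO value was called (0.38, with 0.24 for OE). SAPK6 had 31.5 and 34.4 CPM in PIP2-7 OE and 53.4 and 52.4 CPM in PIP2-7 KO, against 35.4 and 32.3 CPM in PIP2-7 WT leaves, so that KO alone was higher (0.65, SE 0.055, adjusted p = 3.8e-14). In PIP2-1 leaves SAPK6 had 37.5 and 40.0 CPM in OE and 29.1 and 32.4 CPM in KO, against 50.9 and 52.4 CPM in WT. The changes were -0.42 (adjusted p = 3.6e-07) and -0.77 (adjusted p = 6.5e-13). No SAPK6 call was kept against the other WT pair, where PIP2-1 OE leaves were higher (0.21, adjusted p = 0.0030), PIP2-7 OE leaves were lower (-0.64), and the KO lines were at -0.14 for PIP2-1 and 0.021 for PIP2-7.

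**Figure D3:**
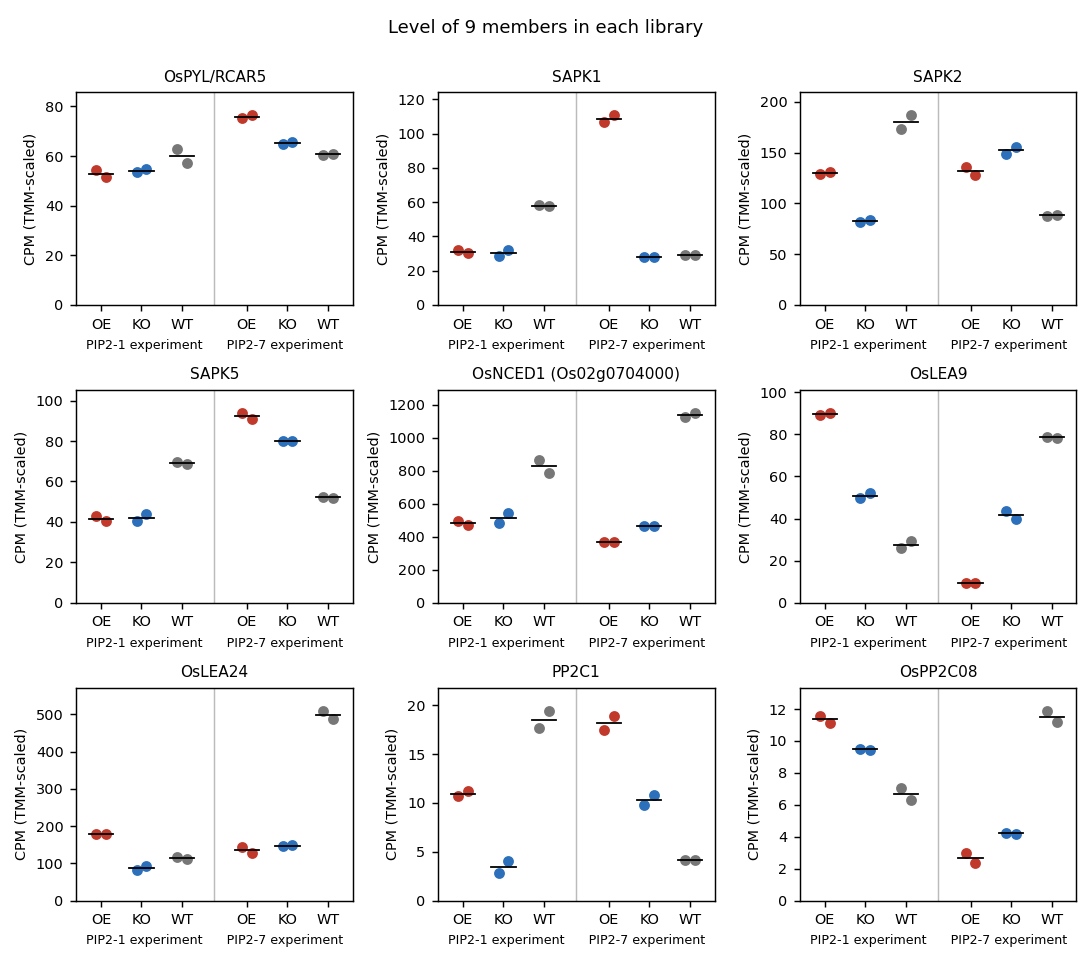
Level of 9 members in each library (vertical axis, TMM-scaled CPM, from 0), with the groups OE, KO and WT of the PIP2-1 experiment left of the grey line and those of the PIP2-7 experiment right of it. Points are the 2 libraries and the bar is their mean. SAPK1 stands at 107 and 111 CPM in PIP2-7 OE leaves, OsNCED1 is higher in the WT libraries than in every library of a line, and OsLEA9 is lowest in PIP2-7 OE leaves.

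Of the 4 tested NCED enzymes, 0 were higher and 3 lower in PIP2-1 OE, 0 higher and 2 lower in PIP2-1 KO, 1 higher and 2 lower in PIP2-7 OE, and 1 higher and 2 lower in PIP2-7 KO leaves. In the same order of lines, 23.2%, 30.5%, 33.4% and 32.1% of all genes were higher and 20.9%, 31.9%, 33.7% and 31.3% lower. One enzyme carried nearly all reads of this role and was lower in all 4 lines. OsNCED1 at Os02g0704000 (chr2:29026099-29028176, minus strand, 1 exon) had 492 and 472 CPM in PIP2-1 OE leaves and 482 and 542 CPM in PIP2-1 KO leaves, against 863 and 788 CPM in PIP2-1 WT leaves. In the PIP2-7 experiment it had 370.1 and 365 CPM in PIP2-7 OE leaves and 462 and 465 CPM in PIP2-7 KO leaves, against 1126 and 1149 CPM in PIP2-7 WT leaves. Every library of a line lay below every WT library of either experiment. The log2 changes were -0.79 (SE 0.062, adjusted p = 1.8e-06) in PIP2-1 OE, -0.71 (SE 0.063, adjusted p = 2.3e-06) in PIP2-1 KO, -1.62 (SE 0.027, adjusted p = 2.1e-40) in PIP2-7 OE and -1.29 (SE 0.027, adjusted p = 8.3e-37) in PIP2-7 KO leaves. Against the other WT pair they were -1.23 (adjusted p = 9.4e-10), -1.15 (adjusted p = 2.6e-09), -1.15 (adjusted p = 2e-09) and -0.85 (adjusted p = 5.3e-08). Of 22762 genes tested in all these fits, 76 were lower and 46 higher in the 4 lines against both WT pairs, and OsNCED1 was the 1 member among them. The wild types differed here too, by 0.44 (SE 0.055, adjusted p = 1.7e-05) for PIP2-7 WT against PIP2-1 WT leaves. The fall was larger in the PIP2-7 experiment, with a difference of -0.81 (adjusted p = 1.3e-06) for OE and -0.58 (adjusted p = 2.8e-05) for KO. In the authors' deposited table the same gene was significant in all 4 comparisons with WT, at log2 changes of -0.91 for PIP2-1 OE, -0.50 for PIP2-1 KO, -1.37 for PIP2-7 OE and -1.09 for PIP2-7 KO leaves.

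The remaining NCED members were far less abundant. OsNCED2 at Os12g0617400 had 4.42 and 4.17 CPM in PIP2-7 OE leaves and 6.49 and 6.94 CPM in PIP2-7 KO leaves, against 8.09 and 9.10 CPM in PIP2-7 WT leaves. The changes were -0.99 (SE 0.12, adjusted p = 2.4e-09) and -0.36 (adjusted p = 0.0076), and both were larger against the PIP2-1 WT pair (-1.34 and -0.72). In the OsPIP2-1 lines its changes of -0.41 (adjusted p = 0.0064) and -0.38 (adjusted p = 0.0096) were lost against the PIP2-7 WT pair (-0.040 and -0.015). Single libraries also decided 3 of the OsNCED2 calls. For PIP2-1 OE the call was lost without PIP2-1 WT replicate 2 (-0.36) or PIP2-1 OE replicate 2 (-0.21), and for PIP2-1 KO without PIP2-1 WT replicate 2 (-0.34) or PIP2-1 KO replicate 1 (-0.24). For PIP2-7 KO it was lost without PIP2-7 WT replicate 2 (-0.27) or PIP2-7 KO replicate 1 (-0.31). OSNCED3 had 36 and 27 counts in the PIP2-7 OE libraries, against 3 and 2 counts in the PIP2-7 WT libraries, a ratio of 11.4 with an exact 95% interval of 4.63 to 36.3 from counting error alone. Its other called changes, -2.18 (adjusted p = 0.0073) in PIP2-1 OE and 1.83 (adjusted p = 0.030) in PIP2-7 KO leaves, rested on single libraries. The first was lost without PIP2-1 WT replicate 1 (-1.80) or PIP2-1 OE replicate 1 (-1.63) and was -3.11 without PIP2-1 OE replicate 2. The second was lost without PIP2-7 WT replicate 1 (2.18), PIP2-7 WT replicate 2 (1.52) or PIP2-7 KO replicate 2 (1.57). None of the OSNCED3 changes was called against the other WT pair, where they were 0.40, 1.43, 0.90 and -0.75 in the order PIP2-1 OE, PIP2-1 KO, PIP2-7 OE and PIP2-7 KO. OsNCED1 at Os03g0645900, a second locus of that name, had between 0.703 and 2.46 CPM and was called in no line against its own WT, with changes of 0.49, 0.20, -0.47 and -0.58 in the same order.

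Other genes of hormone synthesis and breakdown, from a list of 16 names of which 8 loci were found and tested, moved as follows. In PIP2-1 OE leaves 2 were higher and 1 lower, in PIP2-1 KO leaves 3 higher and 2 lower, in PIP2-7 OE leaves 2 higher and 5 lower and in PIP2-7 KO leaves 1 higher and 5 lower. The hydroxylase OsABA8OX2, which starts the breakdown of abscisic acid, averaged 4.54 CPM in PIP2-7 OE and 5.75 CPM in PIP2-7 KO leaves, against 22.7 CPM in PIP2-7 WT leaves. The log2 changes were -2.31 and -1.98, and -1.51 and -1.20 against the other WT pair. It averaged 22.2 CPM in PIP2-1 OE and 30.4 CPM in PIP2-1 KO leaves, against 13.1 CPM in PIP2-1 WT leaves. The changes were 0.75 and 1.20. Against the PIP2-7 WT pair the OE call was lost, at -0.020 (adjusted p = 0.85), and the KO rise was 0.42 (adjusted p = 4.9e-06). OsABA8OX3, of the same family, changed by -1.88 and -1.76 in the PIP2-7 lines and by 0.40 in PIP2-1 KO leaves, with -0.11 (not called) in PIP2-1 OE leaves. Its 3 calls kept their direction against the other WT pair, at -1.71, -1.60 and 0.26. OsABA1, a zeaxanthin epoxidase of the synthesis pathway, averaged 504 CPM in PIP2-1 OE and 640.1 CPM in PIP2-1 KO leaves, against 793 CPM in PIP2-1 WT leaves, and changed by 0.23 and 0.24 in the PIP2-7 lines. The other WT pair gave -0.28, 0.054, -0.13 and -0.13 in PIP2-1 OE, PIP2-1 KO, PIP2-7 OE and PIP2-7 KO leaves, so the PIP2-1 OE fall alone was kept, PIP2-1 KO lost its call and the PIP2-7 lines turned. In PIP2-7 OE and KO leaves OsNCED1 at Os02g0704000, the most abundant transcript named NCED, was lower than in PIP2-7 WT leaves and than in PIP2-1 WT leaves. The same held for the breakdown transcripts OsABA8OX2 and OsABA8OX3. The part of that NCED locus in hormone synthesis was not tested.

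Few LEA proteins were expressed in these leaves, with 6 of 23 tested. Of these, 4 were higher and 2 lower in PIP2-1 OE leaves, 3 higher and 3 lower in PIP2-1 KO leaves, 0 higher and 3 lower in PIP2-7 OE leaves, and 1 higher and 4 lower in PIP2-7 KO leaves, where 5 were tested. With 1 library left out, 1 was lower in PIP2-1 OE leaves without PIP2-1 OE replicate 1 and 2 were higher in PIP2-7 KO leaves without PIP2-7 WT replicate 2. Among all genes 23.2% were higher and 20.9% lower in PIP2-1 OE, and 30.5% and 31.9% in PIP2-1 KO leaves. For PIP2-7 OE these shares were 33.4% and 33.7%, and for PIP2-7 KO leaves 32.1% and 31.3%. The summed level of the role was 329.8 ± 2.93 CPM in PIP2-1 OE and 201 ± 9.60 CPM in PIP2-1 KO leaves, against 192 ± 3.71 CPM in PIP2-1 WT leaves. In the PIP2-7 experiment it was 182 ± 11.2 CPM in OE and 227 ± 0.091 CPM in KO leaves, against 633 ± 18.5 CPM in PIP2-7 WT leaves (SD, n = 2 libraries each), the highest of the 6 groups.

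OsLEA24 (Os03g0655400, chr3:25563660-25564431, plus strand, 2 exons) was the most abundant member of the set per length, at 312 CPM per kb over the 12 libraries. It had 143 and 128 CPM in PIP2-7 OE leaves and 146 and 148 CPM in PIP2-7 KO leaves, against 509 and 487 CPM in PIP2-7 WT leaves. Both lines lay far below their WT, at -1.87 (SE 0.035, adjusted p = 5.8e-34) and -1.76 (SE 0.035, adjusted p = 3.8e-33). In the PIP2-1 experiment it had 178 and 178 CPM in PIP2-1 OE leaves and 82.8 and 92.2 CPM in PIP2-1 KO leaves, against 116 and 110.2 CPM in PIP2-1 WT leaves. The changes were 0.65 (SE 0.045, adjusted p = 4.1e-14) and -0.39 (adjusted p = 1.2e-08). The PIP2-7 WT pair alone stood high. Against the other WT pair the OsPIP2-7 lines turned to 0.28 (adjusted p = 5.1e-06) and 0.37 (adjusted p = 2.8e-08), and PIP2-1 OE leaves to -1.47 (adjusted p = 8.7e-25), while the PIP2-1 KO fall was kept (-2.51, adjusted p = 3.3e-30).

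OsLEA9 (Os01g0314800, chr1:11863682-11864412, minus strand, 2 exons) differed strongly between the overexpression lines. It had 89.1 and 90.2 CPM in PIP2-1 OE leaves and 49.6 and 52.3 CPM in PIP2-1 KO leaves, against 26 and 29.1 CPM in PIP2-1 WT leaves. The changes were 1.68 (SE 0.056, adjusted p = 3.7e-24) and 0.86 (SE 0.059, adjusted p = 4.8e-15). In the PIP2-7 experiment it had 9.60 and 9.23 CPM in PIP2-7 OE leaves and 43.5 and 39.7 CPM in PIP2-7 KO leaves, against 78.9 and 78.2 CPM in PIP2-7 WT leaves. The changes were -3.05 (SE 0.062, adjusted p = 4.8e-37) and -0.92 (SE 0.050, adjusted p = 9.5e-21). The 12 libraries form a series without overlap of groups: PIP2-1 OE was highest, then PIP2-7 WT, PIP2-1 KO, PIP2-7 KO, PIP2-1 WT and PIP2-7 OE. The overexpression calls kept their direction against the other WT pair (0.20 for PIP2-1 and -1.55 for PIP2-7), and the knockout calls turned round (-0.63 and 0.57).

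OsLEA7 was a member whose direction depended on neither WT pair. It had 57.1 and 60.4 CPM in PIP2-1 OE leaves and 55.1 and 56.1 CPM in PIP2-1 KO leaves, against 48.4 and 46.2 CPM in PIP2-1 WT leaves. In the other experiment it had 32.1 and 31.4 CPM in PIP2-7 OE leaves and 35.9 and 36.8 CPM in PIP2-7 KO leaves, against 52.8 and 49 CPM in PIP2-7 WT leaves. The changes were small in the OsPIP2-1 lines, at 0.31 (adjusted p = 1.1e-05) and 0.21 (adjusted p = 0.0010). They were larger in the OsPIP2-7 lines, at -0.67 (SE 0.053, adjusted p = 4.9e-15) and -0.48 (SE 0.053, adjusted p = 6.4e-11). All 4 were called against the other WT pair (0.22, 0.13, -0.56 and -0.39). OsLEA11 had 2.57 and 2.56 CPM in PIP2-1 OE and 6.31 and 7.09 CPM in PIP2-1 KO, against 1.20 and 1.42 CPM in PIP2-1 WT leaves. In the other experiment it had 4.76 and 4.56 CPM in PIP2-7 OE and 0.433 and 0.586 CPM in PIP2-7 KO, against 5.11 and 5.51 CPM in PIP2-7 WT leaves. It was far lower in PIP2-7 KO leaves than in any other group, at -3.37 (SE 0.22, adjusted p = 1.3e-17) against its own WT and -1.39 (adjusted p = 6.7e-05) against the other. PIP2-1 KO leaves rose by 2.31 (SE 0.19, adjusted p = 5.9e-13) over their own WT and were at 0.33 (adjusted p = 0.065) over the other pair.

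The RAB members were near the detection limit. RAB21 was below the filter at both of its loci, with 60 and 9 counts in all 12 libraries, and RAB16B lay between 0.157 and 1.20 CPM; these RAB loci neighbour each other on chromosome 11 and could share reads. RAB16B changed by 1.06 (adjusted p = 0.046) in PIP2-7 KO leaves. This call was lost without PIP2-7 WT replicate 1 (0.45), PIP2-7 KO replicate 1 (1.23) or PIP2-7 KO replicate 2 (0.88), and the change was 2.24 without PIP2-7 WT replicate 2. It was not called in the other lines (-0.27, -0.042 and -0.25 in PIP2-1 OE, PIP2-1 KO and PIP2-7 OE leaves). OsLEA3-1, a drought-induced LEA gene named here after its values were seen, had 3 counts in the PIP2-1 KO libraries together, against 133 in the PIP2-1 WT libraries, a ratio of 0.0258 with an exact 95% counting interval of 0.00526 to 0.0771. Its level was 0.407 and 0.468 CPM in PIP2-1 OE, against 2.40 and 1.75 CPM in PIP2-1 WT leaves, and 0.606 and 0.791 CPM in PIP2-7 KO, against 0.188 and 0.116 CPM in PIP2-7 WT leaves. The PIP2-1 WT libraries stood above all others for this gene. The log2 changes of OsLEA3-1 were -2.23 (adjusted p = 1.7e-06) in PIP2-1 OE and 2.18 (adjusted p = 0.00060) in PIP2-7 KO leaves, and both turned round against the other WT pair, to 1.53 (adjusted p = 0.021) and -1.57 (adjusted p = 0.00018). The PIP2-1 KO call was lost there, at -1.47 (adjusted p = 0.20), and PIP2-7 OE leaves, not called against their own WT, were lower, at -3.21 (adjusted p = 4.1e-09). OsLEA25, also named after its values were seen, had 1 and 3 counts in PIP2-1 OE and 5 and 3 in PIP2-1 KO libraries, against 11 and 17 in PIP2-1 WT libraries. Its ratio for OE was 0.118 with an exact 95% counting interval of 0.0300 to 0.337. Neither OsPIP2-1 line was called for OsLEA25 against the other WT pair, at 0.15 (adjusted p = 0.94) for OE and 1.54 (adjusted p = 0.27) for KO.

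Genes around the set that respond to water shortage were taken from lists of names. From a list of 24 names 2 other dehydration genes were found. The dehydrin LIP9 changed by 0.29 in PIP2-1 OE, -0.70 in PIP2-1 KO, 2.49 in PIP2-7 OE and 1.89 in PIP2-7 KO leaves. OsASR5, an abscisic acid, stress and ripening protein, changed in the same order by 0.99, 1.11, -0.31 and -0.45. LIP9 averaged 85.3 CPM in PIP2-7 OE and 56.5 CPM in PIP2-7 KO leaves, against 15.2 CPM in PIP2-7 WT leaves. Of 18 bZIP and related factors searched, 2 were found. TRAB1, the bZIP factor that SAPK kinases phosphorylate, averaged 17.9 CPM in PIP2-1 OE and 6.73 CPM in PIP2-1 KO leaves, against 21.5 CPM in PIP2-1 WT leaves. The changes were -0.28 and -1.70, and it changed by 0.62 and 0.37 in the PIP2-7 lines. OsbZIP72 changed by -0.25, -0.43, 0.21 and -0.52. All changes in the sentences on LIP9, OsASR5, TRAB1 and OsbZIP72 were called against their own WT. In the same order the values against the other WT pair were 1.61, 0.62, 1.20 and 0.58 for LIP9 and 0.21, 0.32, 0.50 and 0.34 for OsASR5, so the PIP2-1 KO call of LIP9 and both PIP2-7 calls of OsASR5 turned. For TRAB1 they were 0.30, -1.12, 0.070 and -0.20, where the PIP2-1 KO fall alone was kept, PIP2-1 OE and PIP2-7 KO turned and PIP2-7 OE lost its call. The 4 OsbZIP72 calls were kept, at -0.35, -0.52, 0.33 and -0.42.

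Of 15 drought-responsive factors searched, 7 loci were found and 6 tested. Of these, 0 were higher and 4 lower in PIP2-1 OE, 0 higher and 5 lower in PIP2-1 KO, 4 higher and 1 lower in PIP2-7 OE, and 3 higher and 0 lower in PIP2-7 KO leaves. The NAC factor SNAC1, which raises drought tolerance when overexpressed in rice, averaged 26.5 CPM in PIP2-1 OE and 4.20 CPM in PIP2-1 KO leaves, against 51.4 CPM in PIP2-1 WT leaves. It averaged 60.1 CPM in PIP2-7 OE and 36.6 CPM in PIP2-7 KO leaves, against 17.9 CPM in PIP2-7 WT leaves. SNAC1 changed by -0.97, -3.63, 1.75 and 1.03 against its own WT in PIP2-1 OE, PIP2-1 KO, PIP2-7 OE and PIP2-7 KO leaves, all called. Its values against the other WT pair were 0.57, -2.10, 0.24 and -0.51, so PIP2-1 OE and PIP2-7 KO turned, while the PIP2-1 KO fall and the PIP2-7 OE rise were kept. OsNAC6 changed by -0.83, -1.90, 1.5 and 1.15 in that order. It was 0.12, -0.95, 0.57 and 0.21 against the other WT pair, so only PIP2-1 OE turned. None of the 6 guard cell names searched was found in the table's gene field. The part of these factors in the members' changes was not tested.

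Of the PP2C phosphatases, clade A included, 64 were tested in the PIP2-1 and 65 in the PIP2-7 experiment. Of these, 5 were higher and 31 lower in PIP2-1 OE, 13 higher and 37 lower in PIP2-1 KO, 30 higher and 15 lower in PIP2-7 OE, and 30 higher and 19 lower in PIP2-7 KO leaves. The count of 5 was 3 without PIP2-1 WT replicate 2 and 2 without either PIP2-1 OE library. Of all genes tested, 23.2% were higher and 20.9% lower in PIP2-1 OE, and 30.5% and 31.9% in PIP2-1 KO leaves. The shares were 33.4% and 33.7% in PIP2-7 OE, and 32.1% and 31.3% in PIP2-7 KO leaves. The summed PP2C level was 2603 ± 18.9 CPM in PIP2-1 OE and 2597 ± 29.1 CPM in PIP2-1 KO, against 2910.3 ± 64 CPM in PIP2-1 WT leaves. It was 2852 ± 27.9 CPM in PIP2-7 OE and 2725 ± 14.5 CPM in PIP2-7 KO, against 2540.0 ± 17.3 CPM in PIP2-7 WT leaves. Per kilobase the most abundant were OsBIPP2C1 at 148, OsPP2C05 at 141 and OsPP2C10 at 117 CPM per kb. Beside the clade A members found by number, the phosphatases that changed most among those averaging at least 5 CPM in a compared group follow. The search by number did not place the first of them, PP2C1, in or outside clade A.

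The gene named PP2C1 (Os09g0325700, chr9:9567471-9568877, plus strand, 1 exon) was among the largest falls in both OsPIP2-1 lines and the largest rises in both OsPIP2-7 lines. It had 10.7 and 11.2 CPM in PIP2-1 OE leaves and 2.87 and 4.01 CPM in PIP2-1 KO leaves, against 17.6 and 19.4 CPM in PIP2-1 WT leaves. In the other experiment it had 17.5 and 18.9 CPM in PIP2-7 OE leaves and 9.81 and 10.8 CPM in PIP2-7 KO leaves, against 4.20 and 4.14 CPM in PIP2-7 WT leaves. The changes were -0.77 (SE 0.10, adjusted p = 5.7e-08), -2.47 (SE 0.13, adjusted p = 1e-18), 2.14 (SE 0.11, adjusted p = 3.4e-22) and 1.30 (SE 0.12, adjusted p = 1.4e-13) in PIP2-1 OE, PIP2-1 KO, PIP2-7 OE and PIP2-7 KO leaves. With PIP2-1 WT leaves high and PIP2-7 WT leaves low (-2.18, adjusted p = 1.3e-23, for PIP2-7 WT against PIP2-1 WT), none kept its call and direction against the other WT pair, where they were 1.41, -0.30, -0.017 and -0.87. PIP2-7 OE leaves and PIP2-1 WT leaves had overlapping levels of this gene. Within an experiment OE leaves exceeded KO leaves in both, by 1.70 (adjusted p = 1.9e-13) for OsPIP2-1 and 0.83 (adjusted p = 6.9e-11) for OsPIP2-7, a contrast that uses no WT library.

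In PIP2-1 KO leaves the largest falls beside PP2C1 were OsPP2C61, OsPP2C29 and OsPP2C47. OsPP2C61 (Os07g0114000) had 12.3 and 12.8 CPM in PIP2-1 OE leaves and 1.80 and 2.78 CPM in PIP2-1 KO leaves, against 15.3 and 16.1 CPM in PIP2-1 WT leaves. The KO change was -2.83 (SE 0.14, adjusted p = 4.7e-19), and -1.53 (adjusted p = 2.7e-12) against the other WT pair. OsPP2C29 had 4.58 and 4.01 CPM in PIP2-1 KO, against 18.2 and 18.9 CPM in PIP2-1 WT leaves. The change was -2.13 (SE 0.11, adjusted p = 1.8e-18), and -0.54 (adjusted p = 0.00084) against the other WT pair. OsPP2C47 had 21.9 and 23.2 CPM in PIP2-1 KO, against 59.3 and 58 CPM in PIP2-1 WT leaves. The change was -1.40 (SE 0.062, adjusted p = 1.2e-20), and -1.17 (adjusted p = 6.3e-24) against the other pair. All 3 falls held against both wild types, and PIP2-1 OE leaves were above KO leaves for OsPP2C61 (2.49, adjusted p = 3.9e-17) and OsPP2C47 (1.08, adjusted p = 4.3e-17). Beside the clade A member OsPP2C49, described above, the largest rises were OsPP2C56, with 20.3 and 18 CPM in PIP2-1 KO, against 3.45 and 4.55 CPM in PIP2-1 WT leaves (2.21, SE 0.13, adjusted p = 2e-17, and 1.08 against the other pair), and OsPP2C01. OsPP2C01 had 159 and 167 CPM in PIP2-1 KO, against 87.2 and 85.8 CPM in PIP2-1 WT leaves (0.89, SE 0.043, adjusted p = 1.4e-19, and 0.30 against the other pair).

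PIP2-1 OE leaves changed less. OsPP2C27, a phosphatase that dephosphorylates cold-signalling proteins in rice, had 21 and 19.4 CPM in PIP2-1 OE leaves and 18.7 and 21.4 CPM in PIP2-1 KO leaves, against 38.7 and 39.6 CPM in PIP2-1 WT leaves. Its changes of -0.97 (SE 0.072, adjusted p = 7.9e-14) and -0.99 (SE 0.075, adjusted p = 6.1e-14) were close to those against the PIP2-7 WT pair (-0.92 and -0.94), and the wild types differed by -0.051 (adjusted p = 0.50). OsPP2C12 had 10.1 and 12.1 CPM in PIP2-1 OE leaves and 9.03 and 8.52 CPM in PIP2-1 KO leaves, against 17.6 and 17.4 CPM in PIP2-1 WT leaves. The changes were -0.67 (SE 0.10, adjusted p = 4.5e-07) and -1.02 (SE 0.10, adjusted p = 1.4e-10), and -0.96 and -1.31 against the other pair. For both genes the OsPIP2-1 lines stood below every WT library and every OsPIP2-7 library. OsPP2C29 was also lower in PIP2-1 OE leaves (-0.42, adjusted p = 0.00018), and it turned round against the other WT pair (1.17, adjusted p = 5.9e-14). The 1 phosphatase outside clade A among the largest rises, OsPP2C65, changed by 0.33 (adjusted p = 0.049). It lost the call without PIP2-1 WT replicate 2 (0.19), PIP2-1 OE replicate 1 (0.37) or PIP2-1 OE replicate 2 (0.29), and against the other WT pair it was 0.081.

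In the OsPIP2-7 lines the largest phosphatase rises beside PP2C1 were OsPP2C59, OsPP2C04 and OsPP2C02 for OE, and OsPP2C29, OsPP2C78 and OsPP2C41 for KO. OsPP2C04 had 54.8 and 57 CPM in PIP2-7 OE leaves and 42.4 and 42.4 CPM in PIP2-7 KO leaves, against 28.4 and 29.6 CPM in PIP2-7 WT leaves. The OE change was 0.96 (SE 0.052, adjusted p = 1.1e-20), and 0.33 (adjusted p = 7.1e-07) against the other WT pair. OsPP2C02 had 39.3 and 40.0 CPM in PIP2-7 OE, against 21.1 and 20.7 CPM in PIP2-7 WT leaves (0.93, SE 0.060, adjusted p = 3.7e-18, and 0.37 against the other pair). OsPP2C59 had 5.94 and 5.78 CPM in PIP2-7 OE, against 1.13 and 1.94 CPM in PIP2-7 WT leaves (1.93, SE 0.19, adjusted p = 8.9e-12, and 0.43 against the other pair). These OE rises were smaller against the other WT pair but called against each pair taken alone. With all 4 WT libraries together OsPP2C59 was not called (0.99, adjusted p = 0.13), while OsPP2C04 (0.62) and OsPP2C02 (0.64) were. OsPP2C41 had 162 and 166 CPM in PIP2-7 OE leaves and 173 and 175 CPM in PIP2-7 KO leaves, against 92.3 and 92.6 CPM in PIP2-7 WT leaves. Its changes of 0.84 (SE 0.034, adjusted p = 2.5e-25) and 0.91 (SE 0.034, adjusted p = 8.5e-27) were -0.16 (adjusted p = 0.00010) and -0.10 (adjusted p = 0.016) against the PIP2-1 WT pair. The KO rises of OsPP2C29 (1.02) and OsPP2C78 (0.96) turned in the same way, to -0.56 and -0.47. None of these 3 KO rises held against both wild types.

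The largest phosphatase falls in the OsPIP2-7 lines beside the clade A members were OsPP2C56 in both and OsPP2C39 in KO leaves. OsPP2C56 had 2.59 and 3.38 CPM in PIP2-7 OE leaves and 2.68 and 2.17 CPM in PIP2-7 KO leaves, against 9.06 and 9.07 CPM in PIP2-7 WT leaves. The changes were -1.59 (SE 0.14, adjusted p = 2.6e-13) and -1.90 (SE 0.15, adjusted p = 4.8e-15), and -0.43 (adjusted p = 0.022) and -0.76 (adjusted p = 0.00018) against the other WT pair. OsPP2C39 had 117 and 116 CPM in PIP2-7 KO, against 226 and 216 CPM in PIP2-7 WT leaves. The change was -0.93 (SE 0.034, adjusted p = 3e-27), and -0.48 (adjusted p = 8.2e-14) against the other pair. A pair of weakly expressed phosphatases, named after their values were seen, had the largest changes of any member in PIP2-7 KO leaves. OsPP2C42 (Os04g0500900, chr4:25003551-25006535, plus strand, 9 exons) had 0 and 2 counts in the PIP2-7 KO libraries, against 65 and 73 in the PIP2-7 WT libraries, a ratio of 0.0140 with an exact 95% counting interval of 0.00168 to 0.0515. In every other group it averaged between 0.603 CPM (PIP2-7 OE) and 2.15 CPM (PIP2-1 KO), so the KO libraries stood below the other 10. Without PIP2-7 KO replicate 2, which held both reads, the fitted log2 change of -5.99 became -9.18, and without PIP2-7 KO replicate 1 it was -5.07. OsPP2C33 (Os03g0301700, chr3:10621704-10625395, minus strand, 7 exons) had 70 and 72 counts in the PIP2-7 KO libraries, against 4 and 5 in the PIP2-7 WT libraries, a ratio of 15.2 with an interval of 7.80 to 34.0. Its mean was at most 0.463 CPM in the other groups.

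A cluster of PP2C loci on chromosome 2 (OsPP2C16, OsPP2C17, OsPP2C18, OsPP2C19 and OsPP2C20) may share reads, since reads with several alignments were counted. All 5 averaged lower in PIP2-1 KO than in PIP2-1 WT leaves and 4 were called, at -0.37 for OsPP2C16, -0.34 for OsPP2C17, -0.90 for OsPP2C19 and -0.75 for OsPP2C20. The first was lost without PIP2-1 WT replicate 2 (-0.34) or PIP2-1 KO replicate 1 (-0.30) and the second without PIP2-1 WT replicate 1 (-0.26) or PIP2-1 KO replicate 1 (-0.16). Against the other WT pair they were -0.12, -0.19, -0.58 and -0.48 in the same order, with the last 2 still called.

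**Figure D4:**
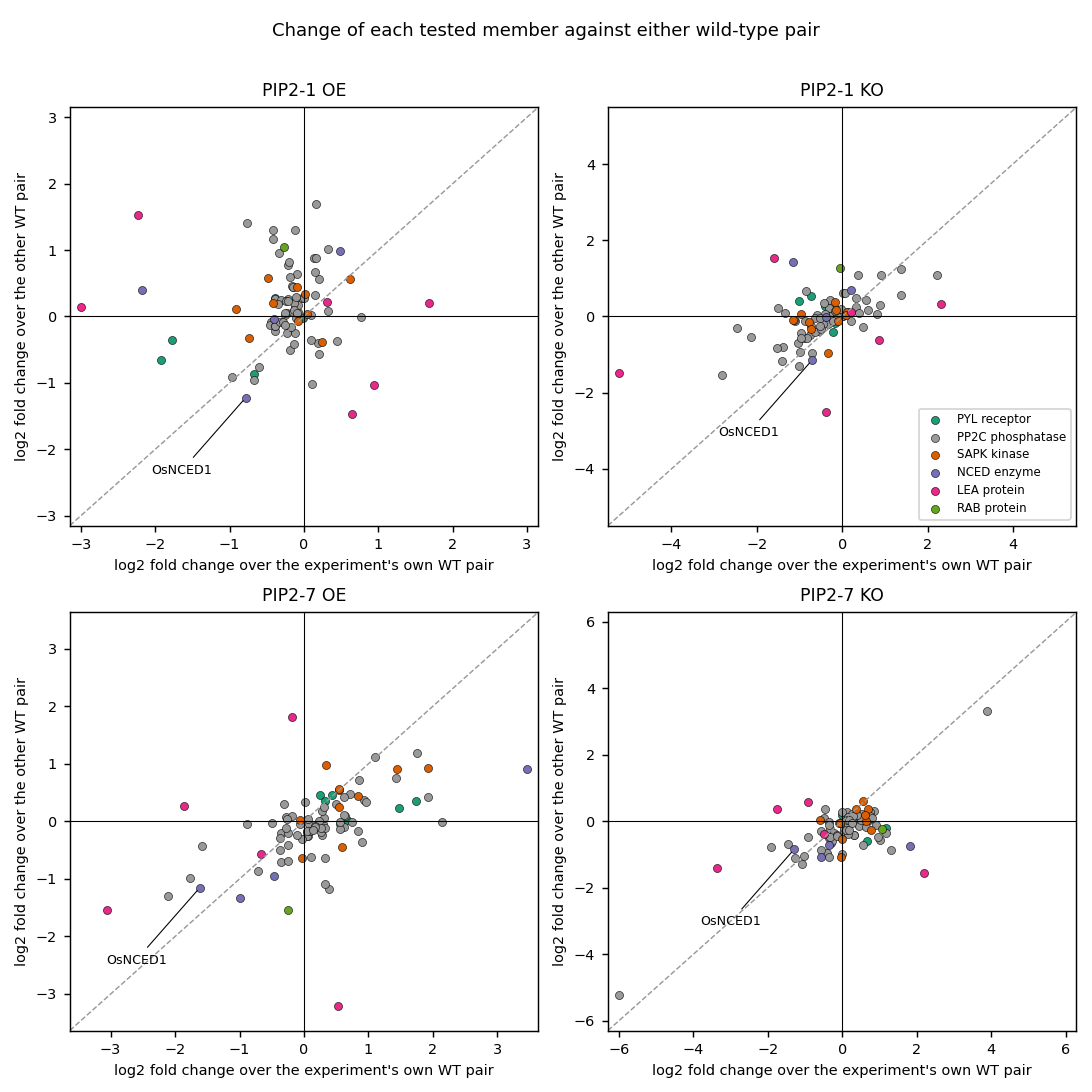
Log2 fold change of each tested member over the WT pair of its own experiment (horizontal axis) and over the WT pair of the other experiment (vertical axis), 1 panel per line, coloured by role, with the dashed line marking equal values. Members in the upper left and lower right parts change direction with the choice of WT pair, and OsNCED1 (Os02g0704000) lies in the lower left part of each panel.

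Set against both WT pairs, the number of called members fell in every line, as the plot of own and other wild types shows. Called the same way against both pairs were 5 members higher and 13 lower in PIP2-1 OE leaves, where all genes gave 9.27% and 6.95%, and 11 higher and 24 lower in PIP2-1 KO leaves, where all genes gave 14.3% and 14.6%. In PIP2-7 OE leaves 19 were higher and 14 lower, against 18.7% and 16.7% of all genes, and in PIP2-7 KO leaves 13 were higher and 18 lower, against 15.4% and 14.6%. As shares of the 91 tested members, these were 5.49% higher and 14.3% lower in PIP2-1 OE leaves. In PIP2-1 KO leaves they were 12.1% and 26.4%. In PIP2-7 OE leaves they were 20.9% and 15.4%, near the shares of all genes, and in PIP2-7 KO leaves 14.3% and 19.8%. Falls outnumbered rises in both OsPIP2-1 lines and in PIP2-7 KO leaves. By role, the receptors kept 2 falls in PIP2-1 OE (OsPYL/RCAR4 and OsPYL/RCAR5), 1 fall in PIP2-1 KO (OsPYL/RCAR5) and 3 rises in PIP2-7 OE leaves (OsPYL/RCAR3, OsPYL/RCAR4 and OsPYL/RCAR5). The kinases kept 6 rises in PIP2-7 OE (SAPK1, SAPK4, SAPK5, SAPK8, SAPK9 and SAPK10) and 4 in PIP2-7 KO leaves (SAPK3, SAPK4, SAPK5 and SAPK7). They kept 1 rise (SAPK3) and 1 fall (SAPK5) in PIP2-1 OE leaves, and 2 falls (SAPK5 and SAPK9) in PIP2-1 KO leaves.

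Comparing OE with KO inside an experiment uses no WT library. In the PIP2-1 experiment 41 of 91 members were higher and 24 lower in OE than in KO leaves, 65 called where 55.5% of all genes were. In the PIP2-7 experiment 42 were higher and 28 lower in OE than in KO leaves, 70 called where 58.0% of all genes were. The kinases SAPK1 (1.96), SAPK10 (1.44), SAPK9 (0.94) and SAPK8 (0.59) were higher in PIP2-7 OE than in PIP2-7 KO leaves, and SAPK6 (-0.67), SAPK3 (-0.61) and SAPK2 (-0.20) lower. OsLEA11 was 3.20 (SE 0.23, adjusted p = 1.8e-16) and OsLEA9 -2.14 (SE 0.066, adjusted p = 1.5e-29) in PIP2-7 OE over KO leaves. In PIP2-1 OE over KO leaves OsLEA11 was -1.37 (SE 0.17, adjusted p = 7e-09) and OsLEA9 0.83 (SE 0.053, adjusted p = 6e-16), the opposite direction for each. OsNCED1 at Os02g0704000 differed little, by -0.077 (adjusted p = 0.33) for PIP2-1 and -0.32 (adjusted p = 2.9e-14) for PIP2-7.

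The authors' deposited table gave the same directions with fewer calls. It marked 5 members higher and 23 lower in PIP2-1 OE, 8 higher and 47 lower in PIP2-1 KO, 43 higher and 9 lower in PIP2-7 OE, and 34 higher and 13 lower in PIP2-7 KO leaves as significant. The share of all genes that it marked was not counted, so these counts are not set against other genes. No member significant in the authors' deposited table was called in the opposite direction here. Of its significant members, 0, 8, 3 and 2 were not called here, in the same order of lines. Across all 6 groups, the tested members differed by a median of 2.04-fold between their highest and lowest group mean, and 19 of 93 by more than 4-fold. The highest mean fell in PIP2-1 WT leaves for 26 members and in PIP2-7 OE leaves for 25, and the lowest in PIP2-1 KO leaves for 31. These folds and counts were not taken over all genes, so whether the members differ from other genes in them is not known.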

How the data were processed

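Leaf RNA of 12 libraries in 6 groups of 2 was sequenced. Per the file headers, the authors' deposited gene counts came from featureCounts 1.4.0 with the Ensembl Plants annotation of IRGSP-1.0, release 52, on the reverse strand, with reads of several alignments counted and reads over several genes left out, so near-identical copies may share reads. The submitters' processing notes name Trim Galore, HISAT2, Cufflinks and Cuffdiff 2.2.1. Per the file headers, the authors' Cuffdiff tables hold FPKM, log2 fold change, p-value and q-value per comparison; their test statistic score, also deposited, was not used. Members were the genes whose name in the PIP2-1 table holds PP2C, PYL, SAPK, NCED, OsLEA, RAB16 or RAB21. The members and all lists were chosen with earlier results of these data known.

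Counts were tested with edgeR 4.0.16 (quasi-likelihood, TMM, limma 3.58.1, R 4.3.3), with one fit per experiment and one of all 12 libraries for differences between experiments. Genes passed filterByExpr with a minimum count of 10 and a minimum total of 15. P-values were adjusted over all genes by Benjamini-Hochberg, with a threshold of 0.05. Standard errors are the log2 change divided by the root of F, and so approximate. The biological coefficient of variation was 3.69% in the PIP2-1 fit, 2.75% in the PIP2-7 fit and 3.24% in the joint fit. Replicates differed by more than counting noise, with chi-square per degree of freedom between 2.50 and 7.69. Counting intervals are exact, at 95%, and cover counting error only. Named with values were all tested PYL, SAPK, NCED and RAB members and clade A phosphatases, and, of the rest, in each comparison with WT, up to 4 rises and 4 falls of largest change among called members with at least 5 CPM in a group and no overlap. Genes named outside this rule are marked, and clade A phosphatases were those found by number. The test was checked on simulated counts. Alternatives were DESeq2 1.42.0, RLE scaling, no filter, a replicate block, each library left out, all 12 libraries in the fit, and the WT libraries of the other or of both experiments. No sequences are shown, and a genome was not used here.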

Additional observations from a re-analysis of the deposited data

Results flagged for a closer look

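The effect of a line, its log2 change over its own WT, was tested for a difference between the experiments (PIP2-7 minus PIP2-1) with edgeR, and 69 of 93 members differed for overexpression and 71 for knockout. Given here are members averaging at least 5 CPM over the 12 libraries whose effects were called in opposite directions and differed by 2 log2 units or more. For overexpression, OsLEA9 differed by -4.71 (-3.05 in PIP2-7 OE and 1.68 in PIP2-1 OE leaves, adjusted p = 2e-45). PP2C1 differed by 2.93 (2.14 in PIP2-7 OE and -0.77 in PIP2-1 OE leaves, adjusted p = 2.4e-24). OsPP2C08 differed by -2.85 (-2.10 in PIP2-7 OE and 0.77 in PIP2-1 OE leaves, adjusted p = 5.3e-21). SAPK1 differed by 2.84 (1.92 in PIP2-7 OE and -0.91 in PIP2-1 OE leaves, adjusted p = 1.8e-37). OsLEA24 differed by -2.50 (-1.87 in PIP2-7 OE and 0.65 in PIP2-1 OE leaves, adjusted p = 6.4e-27). For knockout, OsPP2C56 differed by -4.11 (-1.90 in PIP2-7 KO and 2.21 in PIP2-1 KO leaves, adjusted p = 1.6e-25). PP2C1 differed by 3.78 (1.30 in PIP2-7 KO and -2.47 in PIP2-1 KO leaves, adjusted p = 1.9e-26). OsPP2C61 differed by 3.40 (0.57 in PIP2-7 KO and -2.83 in PIP2-1 KO leaves, adjusted p = 1.3e-23). OsPP2C29 differed by 3.16 (1.02 in PIP2-7 KO and -2.13 in PIP2-1 KO leaves, adjusted p = 1.6e-24). OsPP2C78 differed by 2.30 (0.96 in PIP2-7 KO and -1.34 in PIP2-1 KO leaves, adjusted p = 3.5e-19). OsPP2C41 differed by 2.04 (0.91 in PIP2-7 KO and -1.12 in PIP2-1 KO leaves, adjusted p = 6.2e-38). Differences of members below that level were larger in places: OsLEA11 differed by -5.68 for knockout (-3.37 in PIP2-7 KO and 2.31 in PIP2-1 KO leaves, adjusted p = 4e-24), OSNCED3 by 5.66 for overexpression (3.46 in PIP2-7 OE and -2.18 in PIP2-1 OE leaves, adjusted p = 3.5e-07) and OsLEA3-1 by 7.42 for knockout (2.18 in PIP2-7 KO and -5.23 in PIP2-1 KO leaves, adjusted p = 8.4e-12). Each difference holds the difference between the wild types, from which it cannot be told apart. The summed senescing-leaf markers differed as well, at 1607 to 1662 CPM in PIP2-7 OE and 1669 to 1682 CPM in PIP2-7 KO libraries, against 532 to 552 CPM in PIP2-7 WT libraries, and their part was not tested.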

How the results depend on the processing

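The choice of wild type moved the counts most. Against the WT pair of the other experiment, members higher and lower numbered 36 and 20 in PIP2-1 OE, 28 lower in PIP2-1 KO, 23 and 33 in PIP2-7 OE, and 17 and 44 in PIP2-7 KO leaves. Against all 4 WT libraries they numbered 2 and 6, 7 and 20, 18 and 13, and 10 and 17 in the same order of lines. Shares of all genes were not taken in these settings, so whether the members differ from other genes there is not known. DESeq2 called 27 lower in PIP2-1 OE and 17 lower in PIP2-7 KO leaves. The cause of these differences was not tested. A change is listed as reversed where its sign turned and it was called in either setting, so some listed values only lost or gained a call. Among named genes, these log2 changes reversed against the other WT pair. In PIP2-1 OE leaves they became OsPP2C08 -0.0091, SAPK6 0.21, SAPK1 0.11, SAPK10 0.45, OsPP2C50 0.18, OSNCED3 0.40, SAPK2 0.57, OsPYL/RCAR10 0.28, SAPK9 -0.38, OsLEA24 -1.47, PP2C1 1.41 and OsPP2C29 1.17. In PIP2-1 KO leaves they became OsPP2C06/OsABI2 0.20, OsPP2C08 -0.28, SAPK1 0.059, SAPK10 0.38, OsPYL/RCAR10 0.27, RAB16B 1.27 and OsLEA9 -0.63. In PIP2-7 OE leaves they became OsPP2C06/OsABI2 -0.044, SAPK2 -0.44, PP2C1 -0.017 and OsLEA24 0.28. In PIP2-7 KO leaves they became OsPP2C50 -0.38, OSNCED3 -0.75, SAPK2 -0.26, RAB16B -0.24, SAPK9 0.030, PP2C1 -0.87, OsPP2C29 -0.56, OsPP2C78 -0.47, OsPP2C41 -0.10 and OsLEA24 0.37. With all 4 WT libraries, those that reversed became OsLEA24 -0.77 and OsPP2C29 0.17 in PIP2-1 OE leaves, OsPP2C06/OsABI2 0.013 and OsLEA9 -0.064 in PIP2-1 KO leaves, SAPK2 -0.0067 in PIP2-7 OE leaves, OsPP2C50 -0.14 and PP2C1 -0.15 in PIP2-7 KO leaves. Of 138 named values, 119 kept their direction and side of the threshold with DESeq2, 137 with RLE scaling, 135 without the filter, 136 with all 12 libraries in the fit, 72 with the other WT pair and 83 with all 4 WT libraries. With each library left out in turn, 501 of 552 values did so and 45 lost their call. The counts higher and lower then ran 7 to 11 and 30 to 40 in PIP2-1 OE, 15 to 16 and 44 to 51 in PIP2-1 KO, 43 to 46 and 18 to 20 in PIP2-7 OE, and 34 to 36 and 19 to 25 in PIP2-7 KO leaves. With the replicate number as a block the counts were 9 and 44, 16 and 49, 45 and 20, and 41 and 26 in the same order, and 1 of 138 named values lost its call. Same-numbered libraries did not deviate together (r between -0.115 and 0.024 over genes, in 7 pairs of groups), so the numbers give no pairing, and a block with crossed numbers, added after the data were seen, called 16 and 50 in PIP2-1 KO leaves. With 2 libraries a group, members under about 1 CPM rest on few reads.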
